A study of Homo sapiens with 52 samples.

Results

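Replacement histone variants were followed at the mRNA level through senescence of human lung fibroblasts. The set comprised 8 genes chosen by symbol, namely H1-10, H2AZ1, H2AZ2, H2AJ, H3-3A, H3-3B, MACROH2A1 and MACROH2A2, out of 59408 genes listed. All 8 were among the 14185 genes that passed the filter on low values, which asked for 10 normalized counts or more on average over the groups.

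Most histone protein is made during DNA replication from clustered genes whose mRNAs usually lack a poly(A) tail, and it is laid down behind the replication fork. Replacement variants come from genes outside these clusters, have polyadenylated mRNAs and can enter chromatin without replication, so that they are the main supply of new histone in cells that no longer divide. In senescent fibroblasts, H2A.J protein and the macroH2A-rich heterochromatin foci are among their best-known features.

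The cells were WI-38, a wild-type human embryonic lung fibroblast line, and total RNA was taken for mRNA-seq. To compare routes into senescence, cells received 0.009% SDS, a detergent that wounds the plasma membrane (PMD-Sen), 75 mM KCl, used to raise Ca2+ influx (Ca2+-Sen), or 250 nM doxorubicin (DXR), which damages DNA (DDR-Sen), for 24 h, and were then washed and kept in culture. Cells were collected on 8 days, daily from day 0 to day 4 and then on days 6, 8 and 16, where day 0 was the end of the treatment. Replicative senescence (RS) was reached by passaging to a population doubling level of about 52, and the controls were untreated young cells between levels 32 and 46. Each of the 26 groups held 2 libraries, which makes 52, and the same 2 untreated libraries stood in all 25 comparisons, with no separate control for each day.

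Each library had between about 15200000 and 55100000 reads in genes, with 15200000 and 18800000 in the untreated libraries. Levels are given in normalized counts, where 1 normalized count is 1 read in a library of the untreated depth, for the deeper library first and the shallower one second. The tables hold means over libraries, from which the reads of each library were solved as whole numbers. In 30 libraries, 31.2% to 67.5% of the reads belong to genes that could not be solved, so that their totals are in part estimates. Among the members, only H2AJ and H3-3B on day 1 of DDR-Sen were known as a group mean alone. Fibroblast markers such as COL1A1 and VIM were abundant in every group, with a summed level over 10 markers of 180130 to 460491 normalized counts. The summed level was 1.90 to 16.5 for 4 epithelial markers, 18.9 to 128 for 3 endothelial markers, 0 to 15.4 for 4 blood markers and 16.7 to 75.4 for 3 neural markers. In such bulk samples, fewer cells of a kind and less RNA per cell cannot be told apart.

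The promoters of the 6 members called in more than 12 of the 25 comparisons with untreated cells are shown here, since 5 of these members were mostly lower and H2AJ was higher. The sequences are the 250 bases before the RefSeq start on GRCh38.p14, 5′ to 3′ on the strand of the gene, with the CCAAT box and its reverse complement ATTGG in capitals.
H2AZ1, chr4:99950276-99950525, minus strand: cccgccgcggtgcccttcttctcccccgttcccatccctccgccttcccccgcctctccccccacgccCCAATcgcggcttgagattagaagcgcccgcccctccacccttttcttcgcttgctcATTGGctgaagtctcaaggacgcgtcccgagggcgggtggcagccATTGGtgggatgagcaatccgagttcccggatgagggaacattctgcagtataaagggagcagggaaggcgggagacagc
H2AZ2, chr7:44848088-44848337, minus strand: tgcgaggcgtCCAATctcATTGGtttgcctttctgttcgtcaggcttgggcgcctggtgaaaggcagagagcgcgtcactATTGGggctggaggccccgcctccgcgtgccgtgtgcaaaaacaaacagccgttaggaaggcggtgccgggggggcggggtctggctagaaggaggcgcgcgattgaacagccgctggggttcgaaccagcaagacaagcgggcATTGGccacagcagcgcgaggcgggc
H3-3B, chr17:75779780-75780029, minus strand: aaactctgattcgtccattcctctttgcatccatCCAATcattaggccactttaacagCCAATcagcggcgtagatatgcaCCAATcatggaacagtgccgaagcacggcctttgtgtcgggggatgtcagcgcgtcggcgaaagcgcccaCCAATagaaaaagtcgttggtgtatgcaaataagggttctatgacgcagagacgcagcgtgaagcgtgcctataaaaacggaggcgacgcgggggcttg
H2AJ, chr12:14774155-14774404, plus strand: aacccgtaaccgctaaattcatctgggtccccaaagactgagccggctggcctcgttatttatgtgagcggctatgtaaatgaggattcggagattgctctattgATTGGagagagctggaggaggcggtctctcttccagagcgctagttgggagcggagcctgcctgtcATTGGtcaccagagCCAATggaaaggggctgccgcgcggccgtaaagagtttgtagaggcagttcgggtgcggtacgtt
H1-10, chr3:129316287-129316536, minus strand: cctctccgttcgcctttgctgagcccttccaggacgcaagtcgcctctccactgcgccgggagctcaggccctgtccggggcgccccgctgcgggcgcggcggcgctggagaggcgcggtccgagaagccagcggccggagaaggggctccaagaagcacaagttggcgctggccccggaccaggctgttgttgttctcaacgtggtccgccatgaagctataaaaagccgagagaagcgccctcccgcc
MACROH2A2, chr10:70052596-70052845, plus strand: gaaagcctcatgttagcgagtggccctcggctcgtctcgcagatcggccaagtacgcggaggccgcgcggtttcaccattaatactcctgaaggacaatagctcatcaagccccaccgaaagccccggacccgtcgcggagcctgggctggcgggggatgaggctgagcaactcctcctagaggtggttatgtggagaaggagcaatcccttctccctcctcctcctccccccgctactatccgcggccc
The CCAAT box, the letters bound by the factor NF-Y, was found 3 times for H2AZ1, 4 times for H2AZ2, 4 times for H3-3B and 3 times for H2AJ on the 2 strands together. Of 35116 windows of the same length before RefSeq starts, 32% held at least 1 copy, 2.93% at least 3 and 0.874% at least 4. The windows of H1-10 and MACROH2A2 held 0 copies. H3-3A had 1 copy in 3 of its 4 windows, and MACROH2A1 had 2 copies in 1 of its 2. The letters were thus found in 3 members that were mostly lower and in the member that was higher, and not in the 2 other members that were mostly lower. Of the 6 windows shown, that of H3-3B lies wholly inside the gene model of GENCODE 29, those of H2AZ1, H2AJ and MACROH2A2 in part, and those of H1-10 and H2AZ2 outside it.

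In GENCODE 29, also on GRCh38, the members are protein-coding genes on 8 different chromosomes. They are H1-10 (chr3:129314771-129316277), H2AZ1 (chr4:99948086-99950388), H2AZ2 (chr7:44826791-44848083), H2AJ (chr12:14774383-14778002), H3-3A (chr1:226061851-226072001), H3-3B (chr17:75776434-75785893), MACROH2A1 (chr5:135333900-135399914) and MACROH2A2 (chr10:70052796-70112280). Several have processed pseudogenes elsewhere in the genome, and how reads that map to more than 1 place were counted is not given in the sources used here.

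To ask which variants differed from untreated cells, the 26 groups were fitted together with limma on log2(normalized count + 1), and a gene was called at a Benjamini-Hochberg adjusted p under 0.05 over all genes tested in that comparison. Of the 200 member values, 117 were called lower, 22 higher and 61 not called. H2AZ1 and H2AZ2 were lower in nearly every group, H3-3B in most, and H2AJ was the member that was mainly higher. H3-3A and MACROH2A1 were seldom called.

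**Figure D1:**
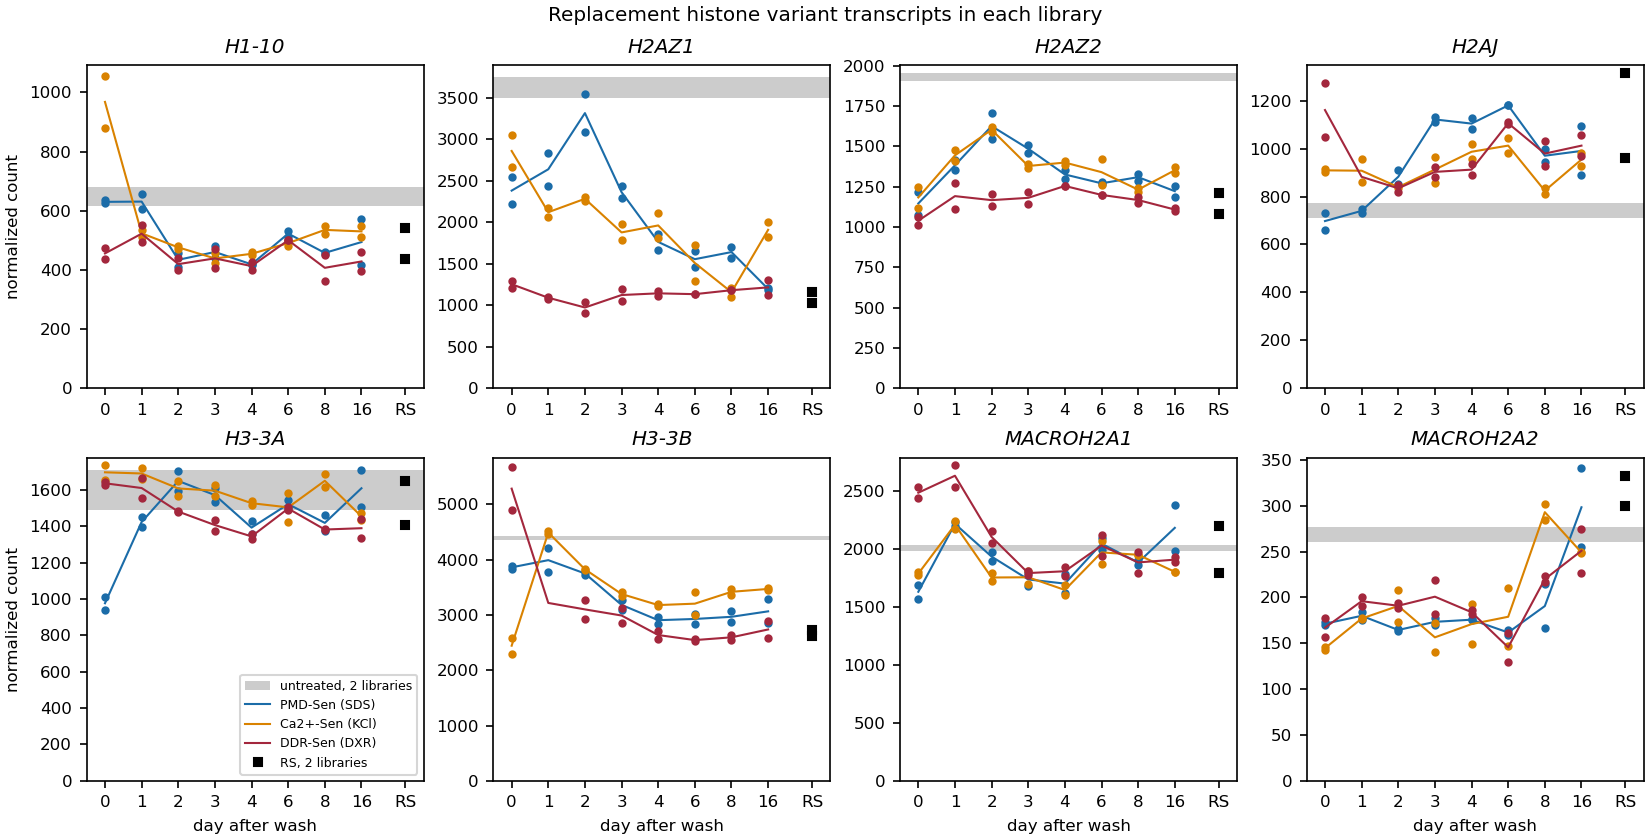
Normalized count (vertical axis, linear from 0) of each member against the day after the wash (horizontal axis, not to scale), with lines through the group means, points for the 2 libraries of each group, squares for RS and a grey band spanning the 2 untreated libraries. H2AZ1 in DDR-Sen stays near its RS level from day 0, whereas in PMD-Sen it is back at 3548 and 3084 on day 2 before it falls, and MACROH2A2 has a higher count in every day 16 library than in any day 0 library.

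The number of members called is to be read against the share of all genes called. On the 8 days of PMD-Sen, in order, 6, 3, 4, 7, 8, 6, 6 and 5 of the 8 members were called, where 59.3%, 33.7%, 22.8%, 24.1%, 27.1%, 34.2%, 29.2% and 47.4% of all genes were. In Ca2+-Sen, 6, 4, 4, 6, 7, 6, 3 and 4 members were called, against 62.3%, 18.8%, 6.44%, 17.6%, 22.8%, 29.9%, 46.6% and 18.4% of all genes. In DDR-Sen, 7, 6, 5, 6, 7, 6, 6 and 6 members were called, against 43.4%, 32.9%, 21.6%, 24.0%, 27.8%, 39.6%, 40.4% and 50.3%, and in RS, 5 members were called against 50.8%. The share of members called was thus below that of all genes on day 8 of Ca2+-Sen, and near it on day 1 of PMD-Sen. In the other 23 comparisons it was above the share of all genes, but narrowly in some. RS had 5 of 8 members against 50.8%, and day 0 of Ca2+-Sen 6 of 8 against 62.3%. PMD-Sen had 6 of 8 against 59.3% on day 0 and 5 of 8 against 47.4% on day 16. Without the deeper untreated library, fewer members were called in each of these narrow cases, so that no excess of members is read from them. Over the 25 comparisons, 2.66% to 33.4% of all genes were called lower and 3.77% to 29.3% higher. The members were abundant, with 144.6 normalized counts or more in every group, where genes were tested from an average of 10 on. The median of all genes lay within 0.04 of 0 on the log2 scale in each of the 25 comparisons, while the median of the 8 members was negative in each, between -0.58 and -0.14. A few of these counts hung on 1 library. Without the deeper untreated library, 2 members were called on day 2 of PMD-Sen, 2 on day 1 of Ca2+-Sen and 1 on day 2 of Ca2+-Sen. Without the shallower untreated library, 2 were called on day 2 of Ca2+-Sen. Fewer members were also called when the shallower library of day 2 of PMD-Sen or either library of day 2 of Ca2+-Sen was left out. The same was seen when either library of day 1 of DDR-Sen was left out. There, part of the fall was a missing value, since H3-3B was known as a group mean alone and dropped out.

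**Figure D2:**
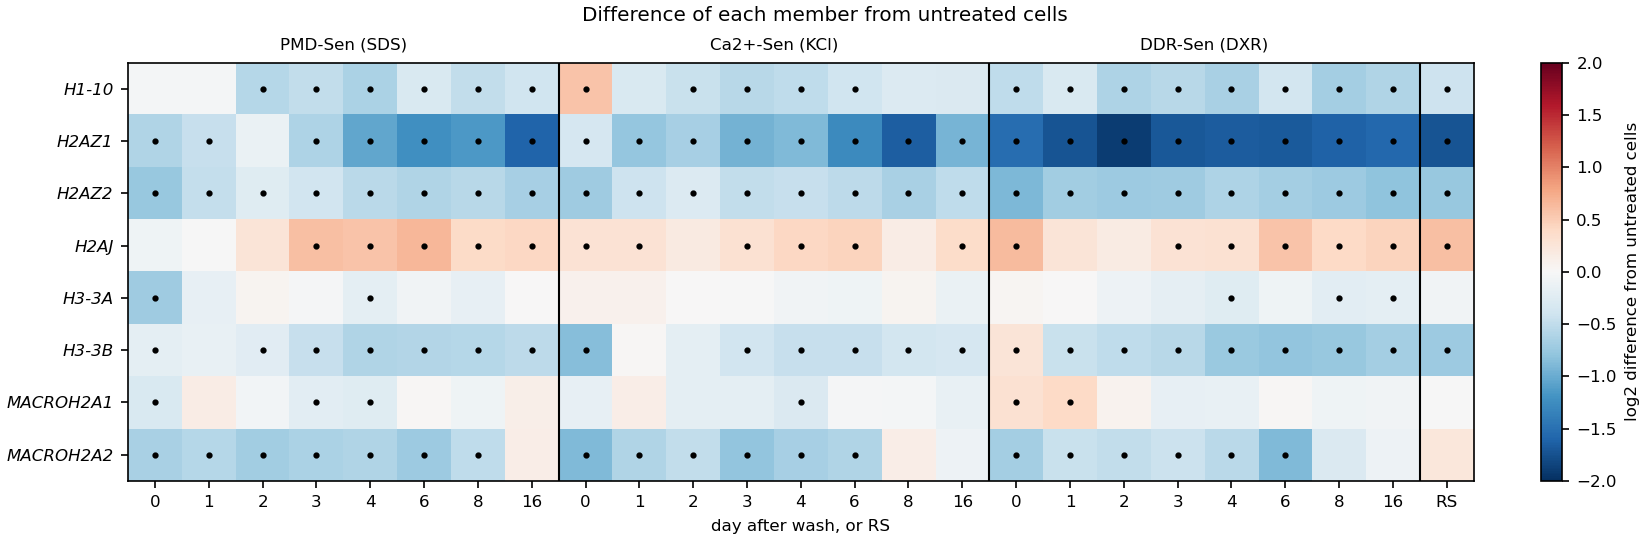
Log2 difference of each member (rows) from untreated cells on each day of PMD-Sen, Ca2+-Sen and DDR-Sen and in RS (columns), with blue for lower, red for higher and a dot for each of the 139 calls. The H2AZ1 row is darkest, from -0.13 to -1.90, the H2AJ row is the red one, and the dots of the MACROH2A2 row end after day 8 in PMD-Sen and after day 6 in Ca2+-Sen and DDR-Sen.

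H2AZ1 encodes H2A.Z.1, a variant placed at promoters and enhancers by the SRCAP and p400 remodellers. It had 3495 and 3751 normalized counts in the 2 untreated libraries, the highest level of any group. It was called lower in 24 of 25 comparisons. The 3 inducers reached this by different courses.

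In DDR-Sen, H2AZ1 had already fallen at the end of the DXR treatment, to 1210 and 1298 normalized counts on day 0, a log2 difference of -1.53 ± 0.11 (SE, adjusted p = 1.6e-12). It was lowest on day 2, at 903 and 1044, with a log2 difference of -1.90 (adjusted p = 1.01e-13). By day 16 the libraries stood at 1123 and 1308, and RS libraries at 1029 and 1158 (log2 difference -1.73, adjusted p = 1.15e-13). None of the 16 DDR-Sen libraries came within the untreated range, and all 8 days lay between 973.3 and 1254 normalized counts on average.

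In PMD-Sen the course had 2 steps. H2AZ1 was 2220 and 2544 on day 0 (log2 difference -0.61, adjusted p = 2.57e-05), came back to 3548 and 3084 on day 2 and then declined to 1181 and 1211 on day 16 (log2 difference -1.60, adjusted p = 4.6e-12). Day 2, with a log2 difference of -0.13 and a 95% interval of -0.36 to 0.10 (adjusted p = 0.428), was the only comparison in which H2AZ1 was not called. One of its libraries lay within the range of the untreated ones.

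In Ca2+-Sen, H2AZ1 was 2670 and 3050 on day 0 and reached its lowest level on day 8, at 1213 and 1103 (log2 difference -1.65, adjusted p = 2.62e-12). On day 16 it was 2000 and 1819 (log2 difference -0.92, adjusted p = 1.01e-06), so that the day 16 libraries lay above those of day 8, without overlap. This difference between days was not tested. MKI67, a marker of cycling cells, lay beside it with log2 differences of -3.03 on day 8 and -1.08 on day 16 of Ca2+-Sen, the latter not called (adjusted p = 0.11). In DDR-Sen and RS, MKI67 was lower by more, with -5.20 on day 16 and -5.92 in RS. On day 0 of PMD-Sen MKI67 was at -3.31, where H2AZ1 had 2220 and 2544 normalized counts. On day 0 of Ca2+-Sen MKI67 was at -2.12, where H2AZ1 had 2670 and 3050. On day 16 of PMD-Sen MKI67 was at -3.28, where H2AZ1 had 1181 and 1211. The part of cycling cells in the level of H2AZ1 was not tested.

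H2AZ2 encodes H2A.Z.2, which differs from H2A.Z.1 by a few amino acids and comes from another gene. It was called lower in all 25 comparisons, but by less. Untreated libraries had 1955 and 1905 normalized counts, and no library of any other group came up to them. The smallest difference was on day 2 of PMD-Sen, at 1705 and 1545 (log2 difference -0.25 ± 0.07, adjusted p = 0.00904), and the greatest on day 0 of DDR-Sen, at 1063 and 1014 (-0.89, adjusted p = 4.86e-12). RS libraries had 1209 and 1078 (-0.76, adjusted p = 1.35e-10). Day 0 of PMD-Sen, at 1075 and 1216 normalized counts, had the lowest mean of that course, although its libraries overlapped with those of day 16. H2AZ1 and H2AZ2 levels had a Pearson r of 0.74 over the 26 groups, the highest between any 2 members. This is a description over groups that share libraries of 1 line and 1 scaling.

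H2AJ encodes H2A.J, a mammalian H2A variant with its own C-terminal end. It was called higher in 18 of 25 comparisons and lower in 0, and without the deeper untreated library in 10 comparisons in all. The untreated libraries had 709 and 774 normalized counts. In PMD-Sen, H2AJ was 662 and 733 on day 0 and 733 and 748 on day 1, neither of which was called. It was then 1112 and 1131 on day 3 (log2 difference 0.60 ± 0.10, adjusted p = 0.000122) and 1180 in both libraries on day 6 (0.67, adjusted p = 8.81e-06), well above both untreated libraries.

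In DDR-Sen, H2AJ was high at once, at 1047 and 1275 on day 0 (log2 difference 0.64, adjusted p = 7.77e-06), was 819 and 849 on day 2 (0.17, adjusted p = 0.255) and was 1102 and 1109 on day 6 (0.58, adjusted p = 4.29e-05). In Ca2+-Sen the log2 differences lay between 0.15 on day 8, which was not called, and 0.45 on day 6. On day 16 the log2 difference was 0.41 in PMD-Sen, 0.36 in Ca2+-Sen and 0.45 in DDR-Sen, all called. RS had 1315 and 962 normalized counts (0.60, adjusted p = 1.45e-05), with libraries that lay far apart but both above the untreated ones.

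H3-3A and H3-3B encode the same protein, H3.3, the replacement form of histone H3 that HIRA places at active genes and DAXX with ATRX at heterochromatin and telomeres. The 2 genes differed in their number of calls. H3-3A was called in 5 of 25 comparisons, all lower, whereas H3-3B was called lower in 21 and higher in 1.

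H3-3A had 1492 and 1708 normalized counts in untreated cells, and its clearest change was on day 0 of PMD-Sen, at 940 and 1014 (log2 difference -0.71 ± 0.07, adjusted p = 4.01e-10). On day 1 it was 1399 and 1450 (-0.16, adjusted p = 0.0687) and on day 2, 1704 and 1596 (0.05, adjusted p = 0.673). No later day of PMD-Sen was as low as day 0, although day 4 was also called lower. No day of Ca2+-Sen was called for H3-3A, and RS had 1648 and 1405 (95% interval of the log2 difference -0.21 to 0.07). The other calls were small, between -0.20 and -0.25, on day 4 of PMD-Sen and days 4, 8 and 16 of DDR-Sen, where the libraries lay below both untreated ones. The number of H3-3A calls was 1 without the shallower untreated library, and 8 without the deeper untreated library or without either library of RS. On day 16 of DDR-Sen the call was lost under both other scalings, at an adjusted p of 0.123 when scaled to library totals and of 0.107 with a median ratio over all groups. The processed pseudogene H3P6 (chr2:174719908-174720318), a copy of the H3-3A transcript, was the gene whose level followed H3-3A most closely (r = 0.951 over 26 groups, with 142.8 to 266.2 normalized counts), and reads may have been shared between them.

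H3-3B had 4433 and 4362 normalized counts in untreated cells. The 3 treatments set it apart on day 0. It was 3830 and 3889 after SDS (log2 difference -0.19 ± 0.08, adjusted p = 0.0357), 2296 and 2590 after KCl (-0.85, adjusted p = 7.6e-11) and 4894 and 5670 after DXR (0.26, adjusted p = 0.00657), the only comparison in which it was higher. The libraries of the 3 treatments did not overlap with each other or with the untreated ones. The call after SDS was lost with scaling to library totals (adjusted p = 0.0532).

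One day after the wash, H3-3B was back at 4463 and 4514 in Ca2+-Sen (0.03, adjusted p = 0.835), while in DDR-Sen its group mean was 3216 (-0.45, adjusted p = 3.26e-05). From day 3 on, H3-3B was called lower on every day of all 3 inducers. Day 16 libraries had 2845 and 3283 in PMD-Sen, 3480 and 3458 in Ca2+-Sen and 2581 and 2892 in DDR-Sen, and RS libraries 2720 and 2623 (-0.72, adjusted p = 4.9e-09). No library from day 3 on reached an untreated level.

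MACROH2A1 and MACROH2A2 encode H2A variants with a large macro domain that are enriched in silent chromatin. MACROH2A1 was called in 6 comparisons, higher in 2 and lower in 4, and in 3 without the shallower untreated library. Untreated libraries had 1977 and 2028 normalized counts. It was higher on day 0 of DDR-Sen, at 2527 and 2437 (log2 difference 0.31 ± 0.08, adjusted p = 0.00152), and on day 1, at 2532 and 2725 (0.39, adjusted p = 0.000201). On day 2 it was 2049 and 2153 (0.07, adjusted p = 0.573). It was lower on days 0, 3 and 4 of PMD-Sen and day 4 of Ca2+-Sen, with log2 differences between -0.21 and -0.30. In RS the libraries had 2193 and 1789, on either side of the untreated ones. The tables give 1 value for the gene, so that its splice forms, macroH2A1.1 and macroH2A1.2, could not be separated.

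MACROH2A2, the member with the fewest reads, had 276.3 and 260.5 normalized counts in untreated cells and 183 to 1001 reads in a library. It was called lower in 19 comparisons, and in 12 without the deeper untreated library. After the treatments it was 173.2 and 169.4 on day 0 of PMD-Sen (log2 difference -0.64 ± 0.15, adjusted p = 0.000432), 146.4 and 142.9 in Ca2+-Sen (-0.89, adjusted p = 5.99e-06) and 156.4 and 177.5 in DDR-Sen (-0.68, adjusted p = 0.000384). All these libraries lay well below the untreated ones. It stayed low until day 8 in PMD-Sen and day 6 in Ca2+-Sen and DDR-Sen.

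At the late points MACROH2A2 was not called. It had 254.9 and 341.6 on day 16 of PMD-Sen (0.14, 95% interval -0.17 to 0.44), 249.7 and 248.3 in Ca2+-Sen (-0.11, -0.41 to 0.20), 226.5 and 275.1 in DDR-Sen (-0.10, -0.41 to 0.20) and 299.9 and 331.9 in RS (0.23, -0.07 to 0.54). In Ca2+-Sen the higher level was already there on day 8, at 284.2 and 301.5. A direct contrast of day 16 with day 0, added after the values were seen, was higher by 0.78 in PMD-Sen (adjusted p = 3.35e-05), 0.78 in Ca2+-Sen (adjusted p = 3.83e-05) and 0.58 in DDR-Sen (adjusted p = 0.002), where 64.2%, 62.1% and 45.5% of all genes were called. The median of all genes in these contrasts was between -0.03 and 0.04.

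H1-10 encodes H1.10, a replication-independent linker histone that is rich in nucleolar chromatin. It was called lower in 19 comparisons and higher in 1, and without the deeper untreated library in 13. Untreated libraries had 680.4 and 614.8 normalized counts. Day 0 of Ca2+-Sen was the exception, at 879 and 1057 (log2 difference 0.58 ± 0.12, adjusted p = 7.97e-05), and by day 1 the libraries had 511.6 and 536.1 (-0.30, adjusted p = 0.0648). In Ca2+-Sen, H1-10 was called lower on days 2, 3, 4 and 6. It was not called on day 8, at 550.2 and 520.7, or on day 16, at 548.5 and 512.1. In PMD-Sen, day 0 (634.9 and 625.6) and day 1 (604.9 and 657.3) lay near the untreated libraries, and day 2 on was lower, with -0.58 on day 2 and -0.63 on day 4. In DDR-Sen all 8 days were called lower, between -0.31 and -0.67. RS had 540.2 and 437.6 (-0.41, adjusted p = 0.00383).

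To ask where the inducers themselves differed, they were contrasted directly on the same day. The untreated libraries did not enter the difference itself, but they set the common scale and added to the shared estimate of the spread. Of 192 member values, 61 were called. H2AZ1 made 19 of these calls, H3-3B 11, H2AZ2 8, H3-3A and MACROH2A1 6 each, H1-10 5, H2AJ 4 and MACROH2A2 2. MACROH2A2 had 1 such call without the shallower library of PMD-Sen on day 8 or when either library of Ca2+-Sen or of DDR-Sen on that day was left out. Between PMD-Sen and Ca2+-Sen, 5, 3, 1, 0, 0, 0, 3 and 2 members differed on the 8 days in order, against 67.3%, 21.5%, 12.8%, 0.240%, 0.120%, 0.183%, 22.7% and 26.2% of all genes. Between PMD-Sen and DDR-Sen, 6, 5, 3, 2, 1, 1, 1 and 0 members differed, against 60.6%, 39.2%, 25.8%, 8.76%, 0.902%, 1.38%, 2.02% and 6.20%. Between Ca2+-Sen and DDR-Sen, 6, 4, 4, 2, 2, 2, 4 and 4 members differed, against 64.8%, 28.3%, 11.5%, 5.70%, 3.17%, 5.43%, 25.1% and 31.1%. Differences between inducers were thus widest on day 0 for members and genes in general. On days 4 and 6, 0.120% to 5.43% of all genes differed, with 2 members on both days between Ca2+-Sen and DDR-Sen. On days 8 and 16, more differed again between Ca2+-Sen and each other inducer, at 22.7% to 31.1% of all genes and 2 to 4 members.

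**Figure D3:**
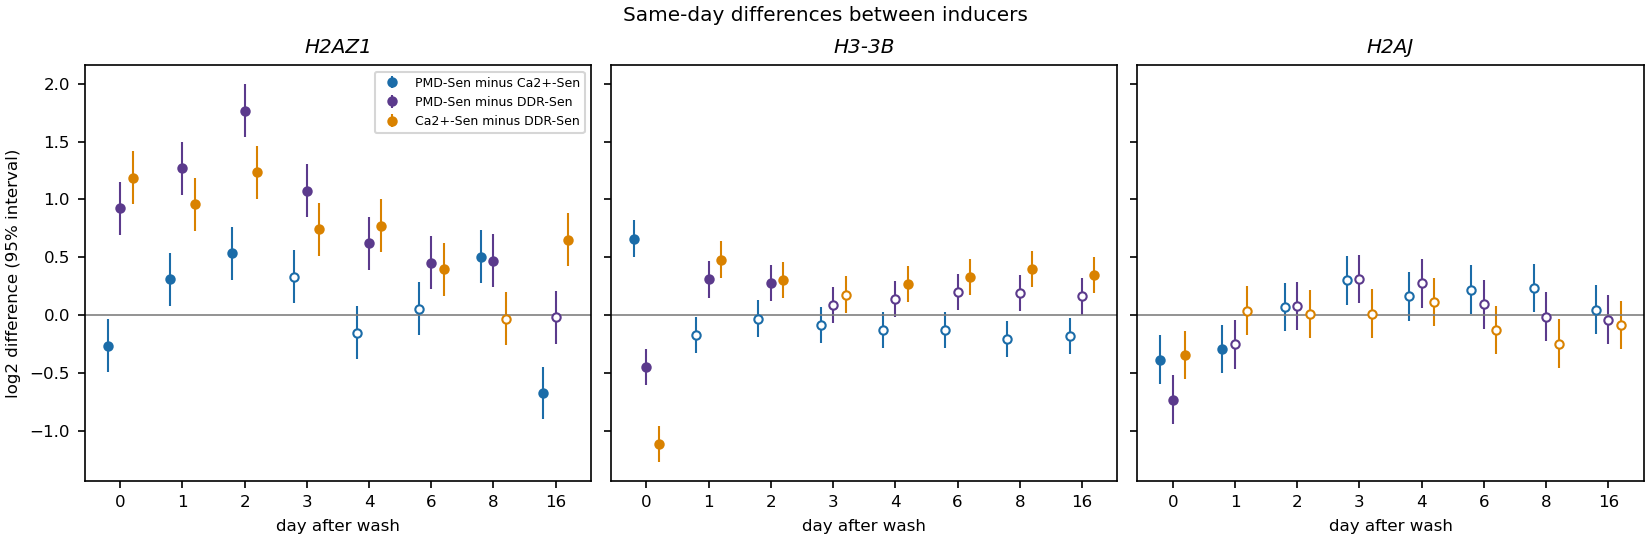
Log2 difference between inducers on the same day (vertical axis) for H2AZ1, H3-3B and H2AJ against the day after the wash (horizontal axis, not to scale), with 95% intervals from limma, filled points for called differences and open points for the rest. H2AZ1 lies above DDR-Sen in both other inducers through day 6, most of all by 1.77 in PMD-Sen on day 2, H3-3B turns from -1.11 on day 0 to positive values in Ca2+-Sen against DDR-Sen, and the filled points of H2AJ are on days 0 and 1.

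H2AZ1 was higher in PMD-Sen than in DDR-Sen on 7 of 8 days, from 0.92 on day 0 through 1.77 on day 2 (95% interval 1.54 to 2.00, adjusted p = 1.08e-12) down to 0.45 on day 6 (adjusted p = 0.031) and 0.47 on day 8 (adjusted p = 0.0145). On day 16 the difference was -0.02, with an interval of -0.25 to 0.21. Ca2+-Sen was above DDR-Sen on 7 days too, with day 8 as the exception (-0.03, interval -0.26 to 0.20) and 0.65 on day 16 (adjusted p = 4.23e-05). Between PMD-Sen and Ca2+-Sen the sign changed along the course, with PMD-Sen lower on day 0 (-0.26) and day 16 (-0.67) and higher on days 1, 2 and 8, by 0.31, 0.53 and 0.50. H2AZ2 was higher in PMD-Sen than in DDR-Sen on days 1, 2 and 3, and in Ca2+-Sen than in DDR-Sen on days 0, 1, 2, 3 and 16, by 0.19 to 0.48. It differed between PMD-Sen and Ca2+-Sen on 0 of 8 days, with differences of -0.15 to 0.11.

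H3-3B was lower in Ca2+-Sen than in DDR-Sen on day 0, by a log2 difference of -1.11 (interval -1.27 to -0.95, adjusted p = 1.71e-13), and higher on days 1, 2, 4, 6, 8 and 16, by 0.27 to 0.48. H3-3A was lower in PMD-Sen than in Ca2+-Sen (-0.80) and in DDR-Sen (-0.75) on day 0. H2AJ differed between all 3 pairs on day 0 and between PMD-Sen and Ca2+-Sen on day 1, and from day 2 on no pair was called, although intervals reached up to 0.52 and H2AJ had 8 same-day calls in place of 4 when either library of RS was left out. MACROH2A2 was lower in PMD-Sen than in Ca2+-Sen on day 8 (-0.63, adjusted p = 0.00328) and higher in Ca2+-Sen than in DDR-Sen (0.41, adjusted p = 0.0413).

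Day 16 was then set against RS. In Ca2+-Sen, H2AZ1 (0.80, adjusted p = 1.55e-06), H2AZ2 (0.24, adjusted p = 0.0068) and H3-3B (0.38, adjusted p = 0.000326) were higher than in RS, where 32.0% of all genes were called. The H2AZ2 call was lost without the deeper library of day 16 of Ca2+-Sen (adjusted p = 0.0607) or the shallower library of RS (adjusted p = 0.144). No member was called for PMD-Sen or DDR-Sen against RS, where 22.4% and 4.10% of all genes were. At these sizes equality is not shown, and for H2AZ1 the intervals were -0.10 to 0.36 in PMD-Sen and -0.08 to 0.38 in DDR-Sen. These counts hung on single libraries. Without the deeper library of day 16 of PMD-Sen, H2AJ and MACROH2A1 each had 1 call against RS and H3-3B 2, and MACROH2A1 also had 1 when either RS library was left out. Without the shallower RS library, H2AJ was lower than in RS on day 16 of all 3 inducers, with log2 differences of -0.42, -0.46 and -0.38.

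The genes that carry and place these variants were followed on day 16 and in RS, in lists by role. In each list sentence the counts are for PMD-Sen, Ca2+-Sen, DDR-Sen and RS in that order, and the share of all genes called lower was 24.7%, 8.80%, 26.9% and 25.6%. Of 23 genes of H2A.Z exchange, 9, 4, 12 and 11 were called lower and 4, 0, 3 and 2 higher, with medians of -0.09, -0.06, -0.22 and -0.17. ANP32E, the chaperone that removes H2A.Z from nucleosomes, was the lowest in all 4, at log2 differences of -1.41, -0.61, -1.16 and -0.89. SRCAP, the ATPase that inserts H2A.Z, was called in none of the 4, with values of -0.13, 0.10, -0.31 and -0.20. ZNHIT1, a subunit of the same complex, was higher by 0.26 in PMD-Sen, 0.24 in DDR-Sen and 0.40 in RS.

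Of 7 genes of H3.3 deposition, 2, 1, 2 and 2 were called lower and 0 higher, near the share of all genes, and these 7 calls became 4 without the shallower untreated library. UBN1, a subunit of the HIRA complex, made 4 of the 7, at -0.24, -0.20, -0.44 and -0.41. HIRA was lower in DDR-Sen (-0.33, adjusted p = 0.0285) and RS (-0.30, adjusted p = 0.0489), ATRX in PMD-Sen (-0.56, adjusted p = 0.0187), and DAXX, at 17.4 normalized counts in untreated cells, and ASF1A were called in none. On day 0 of PMD-Sen, where H3-3A was low, HIRA (0.42) and ASF1A (0.42) were called higher, as were 29.3% of all genes. ATRX (-0.42, adjusted p = 0.0631) and DAXX (0.10) were not called there. UBN1, UBN2 and CABIN1 are not given for that day. Of 8 general histone chaperones, 6 were called lower in each of the 4, with NASP, a carrier of H3 and H4, at -1.10 in PMD-Sen, -1.42 in DDR-Sen and -1.35 in RS. Of 5 tested genes of replication-coupled assembly, out of 6 listed, 4, 3, 5 and 4 were lower, with CHAF1B at -2.83 in DDR-Sen and -2.96 in RS. Of 5 variant readers, 4, 1, 4 and 3 were lower, PARP1 among them, at -0.66, -0.52, -0.91 and -1.16.

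**Figure D4:**
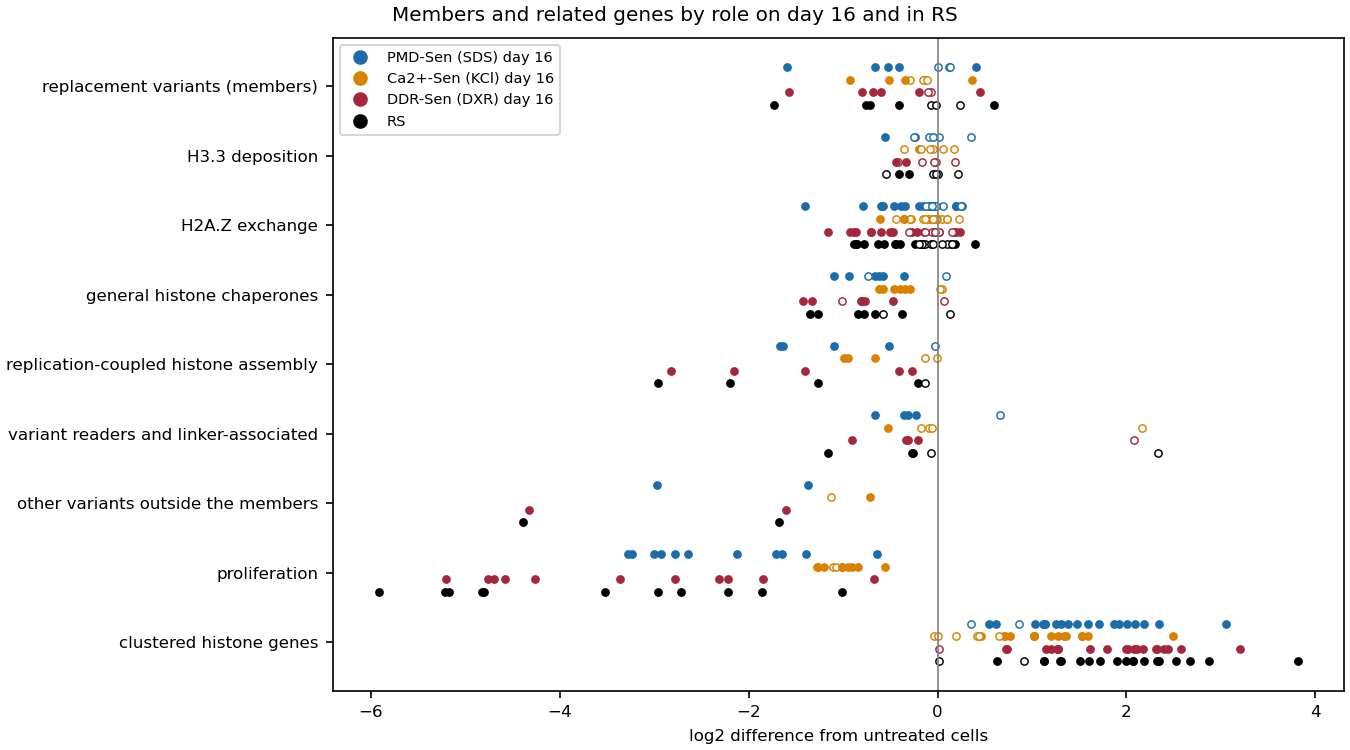
Log2 difference from untreated cells (horizontal axis) of each tested gene of the lists by role (rows, with the 8 members on top), on day 16 of the 3 inducers and in RS, filled where called. The members span -1.73 to 0.60, the proliferation genes reach far to the left in RS, with MKI67 at -5.92, but lie between -1.27 and -0.55 on day 16 of Ca2+-Sen, and the called clustered histone genes lie to the right of 0.

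Of 7 other variants listed outside the set, H2AX and CENPA had enough reads to be tested. H2AX, the variant phosphorylated at DNA breaks, was lower in all 4, at -1.38, -0.71, -1.60 and -1.68, and CENPA, the centromeric H3, was lower in PMD-Sen (-2.97), DDR-Sen (-4.32) and RS (-4.39). All 11 proliferation genes were lower in PMD-Sen, DDR-Sen and RS, and 8 of 11 in Ca2+-Sen. Of 66 clustered histone genes listed, 21 were tested, and 19, 15, 20 and 19 of these were called higher and 0 lower, where 22.7%, 9.62%, 23.3% and 25.3% of all genes were higher. The filter favoured such calls, since 6 of the 21 had fewer than 10 normalized counts in untreated cells and passed only through groups in which they were higher, so that nothing is read from the count. H2BC18, the highest in each, was 1 of these 6, with a mean of 2.11 in untreated cells, 22.8 in PMD-Sen and 39.9 in RS. H2AC6, picked after the values were seen as the tested clustered gene with the highest level in untreated cells, had a mean of 922.5 there and of 2395, 1500.1, 2801 and 3016 in the 4 groups. These genes have close copies, between which reads could have been split, and whether the libraries were made from polyadenylated RNA is not given in the sources used here.

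The genes with the most similar course to each member over the 26 groups were picked among 10032 genes that had 100 normalized counts or more on average. For H2AZ1 they were H2AX (r = 0.956), ENO1 (0.950) and EZH2 (0.940), and for H2AZ2 they were MCM2 (0.927), PARP1 (0.919) and RBBP7 (0.916). EZH2 is the H3K27 methyltransferase, MCM2 a subunit of the replicative helicase and RBBP7 a histone-binding protein, and like H2AZ1 and H2AZ2 they had their highest level in untreated cells. EZH2 ranged from 327.3 normalized counts in untreated cells down to 46.4, and MCM2 from 520.2 down to 94.1. The H2AJ course was closest to MAP3K3 (0.864), BLCAP (0.815) and the clustered histone gene H2BC21 (0.815), which ranged from 137.8 to 815.3. H3-3B was closest to GATB (0.855), DYNC2I2 (0.851) and PRPF19 (0.842). After H3P6, H3-3A was closest to SH3BP4 (0.894) and RFX5 (0.849). H1-10 was closest to STK24 (0.905), ARID1B (0.897) and SLC36A4 (0.872), MACROH2A1 to IER5L (0.831), GSE1 (0.812) and TGFB1 (0.811), and MACROH2A2 to SHISA3 (0.883), BICC1 (0.842) and PLXNC1 (0.838). Between members, r was 0.14 for H3-3A with H3-3B and 0.13 for MACROH2A1 with MACROH2A2. These are descriptions over groups that share a line, a scaling and, within an inducer, a course.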

How the data were processed

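Human WI-38 cells were profiled by paired-end mRNA-seq of 52 libraries in 26 groups, with 2 independent samples each according to the study. The submitters' notes name Trim Galore, HISAT2, HTSeq, featureCounts and DESeq2, and GRCh38 (hg38), without versions. The 52 deposited files hold 25 distinct tables, 1 for each comparison with the untreated cells, and 27 repeat another. The column used is a signal, the mean over 4 libraries of read counts divided by size factors, as the authors deposited it. The tables also hold the authors' fold changes, standard errors, test statistics and p-values, which were not used.

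Since a library's reads are whole numbers, the reads of each library were solved from the printed digits (15 in 10 tables, 10 in 15 tables). The solution was tested on simulated data, and size factors recomputed from the solved reads differed by at most 0.34%. In the tables with 10 digits, 89.5% to 99.2% of genes were solved, and the rest, abundant genes among them, entered as group means with the weight of 2 libraries. They hold 31.2% to 67.5% of the reads of these libraries, which were estimated. Tables were put on 1 scale by their shared untreated libraries. Library depth, with these estimates, was about 15200000 to 55100000 reads, and intervals cover the spread between libraries only.

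limma 3.58.1 in R 4.3.3 was fitted to log2(normalized count + 1) of all 26 groups with an intensity trend of the variance. The 14185 genes that averaged 10 or more normalized counts over groups were tested, two-sided, and p-values were adjusted by Benjamini-Hochberg within each comparison. Fold changes are on this log2 scale and are slightly understated for low genes. With 2 libraries a group, p-values measure the spread between these samples. The fit was tested on data simulated with known changes at an assumed spread between libraries. It recovered 21 of 50 genes changed 1.5-fold and 47 of 50 changed 2-fold. Of the 185 genes called there, 18 were unchanged. No count model was used in the main fit. The deposited values are means, and the reads of some genes could not be solved from them. The members and lists were chosen with earlier results of these data known. Named genes were the members, the 3 genes most correlated with each, the extreme called genes of each list on day 16 and in RS, and H2AX, ASF1A, HIRA, DAXX, ATRX, ANP32E, SRCAP and MKI67. CENPA, ZNHIT1, H2BC18 and other extremes come from that rule. A gene of the named genes and lists is not reported here and was left out of the list counts. Promoters come from RefSeq, and all 8 members matched. Alternatives changed the scaling, filter, pseudocount, variance model, call rule and libraries. Numpy 2.4.6 and matplotlib 3.10.9 in Python 3.11.15 were used for the recovery and figures.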

Additional observations from a re-analysis of the deposited data

Results flagged for a closer look

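The results below stand out because the same member differed between inducers on the same day, or between day 16 and RS, by a direct limma contrast at an adjusted p under 0.05. H2AZ1 differed on 5 of 8 days between PMD-Sen and Ca2+-Sen, on 7 between PMD-Sen and DDR-Sen and on 7 between Ca2+-Sen and DDR-Sen. H2AZ2 differed on 3 days between PMD-Sen and DDR-Sen and on 5 between Ca2+-Sen and DDR-Sen. H3-3B differed on 1 day between PMD-Sen and Ca2+-Sen, on 3 between PMD-Sen and DDR-Sen and on 7 between Ca2+-Sen and DDR-Sen. In the same order of pairs, H1-10 differed on 1, 1 and 3 days, H2AJ on 2, 1 and 1, H3-3A on 3, 2 and 1 and MACROH2A1 on 1, 2 and 3. MACROH2A2 differed on 1 day between PMD-Sen and Ca2+-Sen and on 1 between Ca2+-Sen and DDR-Sen. Against RS, H2AZ1, H2AZ2 and H3-3B each differed in 1 of 3 comparisons, day 16 of Ca2+-Sen. Among the 192 same-day values, 61 were called.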

How the results depend on the processing

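No value called in the main fit or in an alternative changed sign between them. Changes of sign among values called in neither were not counted. Of the 200 values against untreated cells, 196 kept their side of the threshold when scaled to library totals, 195 with a median ratio over all groups, 198 with a filter of 100 normalized counts, 186 with no filter, 196 without the trend and all 200 with a pseudocount of 0.5 or 10. With voom weights, which left out day 1 of DDR-Sen, 184 of 192 did. A call rule that also needs a log2 difference of 0.5 left 85 of 139 calls against untreated cells and 24 of 64 between inducers or against RS. By member it left 11 of 20 for H1-10, 6 of 18 for H2AJ, 1 of 5 for H3-3A, 12 of 22 for H3-3B and 0 of 6 for MACROH2A1. By list on day 16 and in RS it left 1 of 7 for H3.3 deposition, 20 of 45 for H2A.Z exchange and 4 of 12 for variant readers. By comparison it left 1 member on day 1, 2 on day 2, 3 on day 3 and 3 on day 16 of PMD-Sen, 2, 1, 3, 3, 3 and 2 on days 1, 2, 3, 4, 6 and 16 of Ca2+-Sen and 2 on day 1 of DDR-Sen. With no filter, H3.3 deposition had 3 calls and day 2 of Ca2+-Sen 2 members. With a filter of 100, the clustered histone genes had 35 calls in place of 73 and the other variants outside the set 4 in place of 7, since fewer were tested.

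Leaving out each library in turn gave 13 to 23 calls for H1-10, 10 to 20 for H2AJ, 1 to 8 for H3-3A, 3 to 8 for MACROH2A1, 12 to 19 for MACROH2A2 and 4 to 8 for H3.3 deposition. Between inducers it gave 3 to 8 calls for H2AJ and 1 to 3 for MACROH2A2, and for day 16 against RS 0 to 3 for H2AJ, 0 to 1 for H2AZ2 and MACROH2A1 and 1 to 2 for H3-3B. Members called ranged from 2 to 3 on day 2 of PMD-Sen, 2 to 3 on day 1 and 1 to 2 on day 2 of Ca2+-Sen and 3 to 6 on day 1 of DDR-Sen. In these fits a lone library was assumed to vary like the other groups. H2AJ and H3-3B on day 1 of DDR-Sen had no value when a library of that group was left out. They could not be called there, which lowers the count for that day. No paired analysis was possible because both files of a group hold the same table, so that solved libraries could not be tied to replicate numbers. With 2 libraries a group, a difference that was not called may still be present, and its interval gives the range.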
